A study of Mus musculus with 6 samples.

Results

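The neurotrophin family and its receptors were followed as 8 genes chosen by symbol, out of 55357 genes in the count files. They comprise the ligands *Bdnf*, *Ntf3* and *Ntf5*, the Trk receptors *Ntrk2* and *Ntrk3*, the p75 neurotrophin receptor *Ngfr*, and the sorting receptors *Sorcs1* and *Sorcs2*. Of these, 7 were among the 21876 genes with enough reads to be tested (at least 6 reads in at least 1 library), and *Ntf5* was not. The data were RNA-seq counts of 6 libraries of poly(A) RNA from mouse primary neuronal cultures, made from cortex and hippocampus of wild type C57BL/6N embryos at E18. The cultures received lentiviral particles at DIV4 and were collected at DIV14. The 3 shCtrl libraries came from cultures given a scrambled shRNA, and the 3 sh*Pla2g4e* libraries from cultures given sh2, an shRNA against *Pla2g4e*, the gene of a calcium-dependent N-acyltransferase that makes N-acyl-phosphatidylethanolamines. Both groups therefore carried a virus, in matched amounts and in the pLVTHM vector, and the dose was set for a partial knockdown of *Pla2g4e* and not for its loss. No source used here states that the libraries of a group came from separate cultures, so that p-values measure the spread between these libraries, which may be technical.

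Neurotrophins are secreted growth factors of neurons. BDNF and NT-4 (from *Ntf5*) bind TrkB, the tyrosine kinase encoded by *Ntrk2*, and NT-3 (from *Ntf3*) prefers TrkC, encoded by *Ntrk3*. The p75NTR receptor binds the mature factors and, together with sortilin-family proteins such as SorCS2, their uncleaved precursors, and in cortex and hippocampus BDNF signalling is best known for its part in dendrite growth and synaptic plasticity.

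Between 17054717 and 23570180 reads were counted per library, and levels are given as CPM, read counts divided by TMM-scaled library size. The targeted gene followed the labels, with *Pla2g4e* at 38.0, 35.1 and 35.4 CPM in shCtrl and at 21.8, 14.2 and 18.7 CPM in sh*Pla2g4e*. The cultures held RNA of neurons (*Map2* at 1612 to 1661 CPM in shCtrl) and of astrocytes (*Gfap* at 520.1 to 801.4 CPM in shCtrl), so the label "neurons" covers a mixed culture. Microglial, endothelial and cholinergic neurons' defining markers were close to 0, with *Cx3cr1* at 0.0925 to 2.13 CPM, *Pecam1* at 0.799 to 1.14 CPM and *Chat* at 0.194 to 0.503 CPM over the 6 libraries. In such bulk samples fewer cells of a type and less RNA per cell cannot be told apart.

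The shRNA is shown first because its seed, the bases 2 to 8 of the guide strand, can pair with transcripts other than that of *Pla2g4e*, and sites for it lie in some of these genes. In the sequences that follow, 5′ to 3′, capitals mark the 7-base stretch GTGGCCA that pairs with the seed, or, in the guide strand, the seed itself. Windows of 30 bases around each site were read from the GENCODE vM21 transcripts on GRCm38.
sh2 target: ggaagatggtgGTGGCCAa
sh2 guide strand: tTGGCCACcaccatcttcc
Bdnf: ggaatttctgaGTGGCCAtcctaaggtcta
Ntrk2, site 1: ccagggactgtGTGGCCAggagtatggacc
Ntrk2, site 2: gcagcagagagGTGGCCAgctgctaatgaa
Ntrk3: agtggtgactgGTGGCCAagcatttatact
Sorcs1, site 1: taccaggccttGTGGCCAaatcccaacaag
Sorcs1, site 2: ctccattctctGTGGCCAcagggacaaaga
Sorcs1, site 3: aatgatgcccgGTGGCCAtcagctaaccag

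The *Bdnf* site lay at chr2:109725412-109725418 on the plus strand, in the 3′ UTR shared by all 11 coding transcripts. The 2 *Ntrk2* sites lay at chr13:58933011-58933017 and chr13:58933313-58933319 on the plus strand, in 3′ UTRs of 2 and 1 of the 7 coding transcripts. Those transcripts encode 476 residues, a form of TrkB without the kinase domain, whereas the 2 transcripts that encode 821 residues held the stretch once in their coding sequence (chr13:59126437-59126443) and not in the 3′ UTR. The *Ntrk3* site lay at chr7:78192543-78192549 on the minus strand, in 3 of 4 coding transcripts. The *Sorcs1* sites lay on the minus strand at chr19:50148265-50148271, chr19:50150477-50150483 and chr19:50152739-50152745, each in 2 of 7 coding transcripts.

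GTGGCCA was thus found in an annotated 3′ UTR of 4 of the 8 genes, against 14.6% of the tested genes with an annotated 3′ UTR (2289 of 15704). With only the longest coding transcript searched, it was found in 2 of the 8, *Bdnf* and *Ntrk3*, against 12% of the tested genes, 38.2% of those called lower in sh*Pla2g4e* and 6.13% of those called higher. The transcripts of *Ntf3*, *Ntf5*, *Ngfr* and *Sorcs2* did not hold these letters. Gene counts join all transcripts of a gene, so the full-length and truncated forms of *Ntrk2* were not separated.

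*Sorcs2* fell both without and with the pairing of libraries. SorCS2 is a transmembrane sorting receptor that forms a complex with p75NTR for the precursor of BDNF. The gene (ENSMUSG00000029093.15, chr5:36174524-36555483 on the minus strand of GRCm39) was measured at 214.8, 209.4 and 168.5 CPM in shCtrl and at 131.8, 122.4 and 121.7 CPM in sh*Pla2g4e*. Every sh*Pla2g4e* library was below every shCtrl library. The mean fell from 198 ± 25.3 to 125 ± 5.65 CPM (SD, n = 3 each), 63.4% of the shCtrl level. The log2 fold change was −0.66 (SE 0.094, 95% interval −0.86 to −0.46, adjusted p = 2.28e-04 in edgeR's quasi-likelihood test). The log2 ratio within pairs of same-numbered libraries was −0.70, −0.77 and −0.47. In all 14 alternatives, which changed the tool, scaling, filter, pairing or threshold or left out a library, *Sorcs2* stayed called, at −0.76 to −0.58.

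Its relative *Sorcs1*, a receptor of the same family, did not follow. *Sorcs1* (ENSMUSG00000043531.17, chr19:50131737-50667084 on the minus strand) was measured at 42.1, 51.6 and 46.9 CPM in shCtrl and at 48.6, 46.5 and 44.8 CPM in sh*Pla2g4e*. The groups overlapped, with the highest and the lowest library both in shCtrl. The log2 difference was −0.01 with a 95% interval of −0.20 to 0.19 (adjusted p = 0.977 in edgeR), an interval that lies above that of *Sorcs2*. The difference between the responses of these genes was not itself tested. For the other sortilin-family genes, *Sort1*, *Sorl1* and *Sorcs3*, the values were known when they were named. *Sort1*, the gene of sortilin, was at 417 ± 22.7 CPM in shCtrl and 407 ± 29.9 CPM in sh*Pla2g4e*, *Sorcs3* at 52.0 ± 5.22 and 46.8 ± 3.81 CPM, and both overlapped between groups (adjusted p = 0.842 and 0.370 in edgeR). *Sorl1*, a sorting receptor also known for its binding of the amyloid precursor protein, was higher without overlap, at 327 ± 29.4 against 397 ± 25.8 CPM. Its log2 fold change of 0.28 had an adjusted p of 0.0452 in edgeR, and of 2.98e-04 with the pairs as a block.

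**Figure D1:**
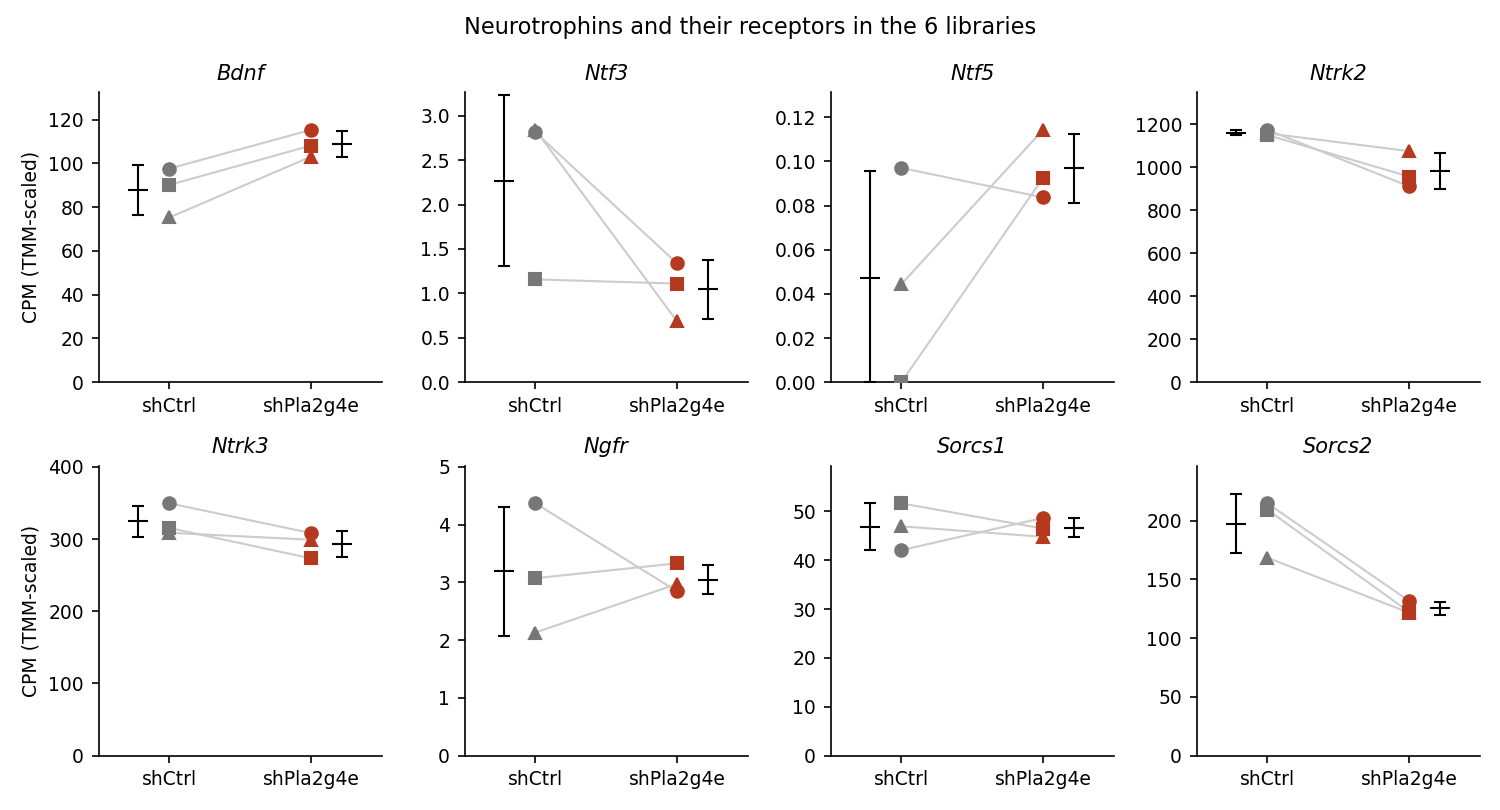
Level of each gene (vertical axis, TMM-scaled CPM, from 0) in the 3 shCtrl (grey) and 3 shPla2g4e (red) libraries, with lines joining same-numbered libraries (circle 1, square 2, triangle 3) and black bars for mean and SD. Bdnf was higher in all 3 shPla2g4e libraries, Sorcs2, Ntrk2 and Ntrk3 lower, and the groups overlapped in Ntf3, Ngfr and Sorcs1. Ntf5 rests on 0 to 2 reads per library.

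Of the 7 tested genes, 0 were called higher and 1 lower at an adjusted p under 0.01, against 2.48% and 4% of all genes tested (6.49% in either direction). Over all genes 543 were called higher and 876 lower, a split that turned round to 796 and 609 with scaling by library size alone, which also gave 1 member higher and 1 lower. DESeq2 and limma after voom gave the same counts of members as the main scaling, and at an unadjusted p under 0.05 in edgeR 1 was higher and 3 lower. With the replicate number as a block, 1 was called higher and 2 lower, against 6.5% and 9.02% of all genes (15.5% in either direction). The groups did not overlap for 1 gene that was higher and 3 that were lower, against 15.5% and 14.6% of all genes (30% in either direction). With 7 genes nothing about the family as a whole is read from these counts, and the results are those of single genes.

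*Bdnf*, the ligand of TrkB, was the member with a higher level in sh*Pla2g4e*. The gene (ENSMUSG00000048482.15, chr2:109505045-109557352 on the plus strand) was measured at 97.7, 90.2 and 75.3 CPM in shCtrl and at 115, 108 and 103 CPM in sh*Pla2g4e*, from 1696 to 2758 reads per library. The lowest sh*Pla2g4e* library stood above the highest shCtrl library. The mean was 87.7 ± 11.4 CPM in shCtrl and 109 ± 6.15 CPM in sh*Pla2g4e* (SD, n = 3 each), or 124% of the shCtrl level.

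The log2 fold change of *Bdnf* was 0.31 (SE 0.095, 95% interval 0.11 to 0.52), and with an adjusted p of 0.0406 in edgeR it missed the threshold of 0.01. With the replicate number as a block it passed (0.32, adjusted p = 2.50e-04), the log2 ratio within pairs being 0.24, 0.26 and 0.45. It also passed without a filter (adjusted p = 0.00616) and with scaling by library size alone (0.39, adjusted p = 0.00744), a scaling that moves the median of all genes from 0.03 to 0.10. Leaving out 1 library gave 0.21 (without shCtrl 3, adjusted p = 0.133) to 0.40, the smallest difference being that without the shCtrl library with the lowest level. Of the exon bases of *Bdnf*, 14.4% (896 bases) overlap *Gm45346* on the other strand. That gene held 0 to 5 reads per library, but strand was not stated in the counting, and its reads within the shared bases cannot be told apart from those of *Bdnf*.

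The TrkC ligand gene *Ntf3* (ENSMUSG00000049107.14, chr6:126078375-126143873 on the minus strand) was scarce. It was measured at 2.81, 1.16 and 2.84 CPM in shCtrl and at 1.34, 1.11 and 0.686 CPM in sh*Pla2g4e*, which are 12 to 64 reads per library. The groups overlapped, because shCtrl 2 stood below sh*Pla2g4e* 1. The mean was 2.27 ± 0.964 against 1.05 ± 0.331 CPM, 46% of the shCtrl level. The log2 difference of −1.10 (SE 0.38, 95% interval −1.92 to −0.29) missed the threshold (adjusted p = 0.0739, and 0.0201 with the pairs as a block, in edgeR), and its log2 ratio within pairs ran from −0.06 in pair 2 to −2.05 in pair 3. *Ntf5* (ENSMUSG00000074121.4, chr7:45063119-45066603 on the plus strand) had 2, 0 and 1 reads in shCtrl and 2, 2 and 2 reads in sh*Pla2g4e*. A count of 0 in shCtrl 2 allows up to 0.151 CPM (3 reads, counting error only), above the level of every library, so no difference in *Ntf5* was detectable at this depth.

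The receptor gene *Ntrk2*, which also had the highest level per exon length of the 8 genes (ENSMUSG00000055254.16, chr13:58954383-59281784 on the plus strand), was measured at 1175, 1151 and 1159 CPM in shCtrl and at 912.0, 957 and 1076 CPM in sh*Pla2g4e*. The 3 shCtrl libraries lay within a narrow range, all above the sh*Pla2g4e* libraries, which spread more widely. The mean was 1162 ± 12.2 against 982 ± 84.6 CPM, 84.5% of the shCtrl level. The log2 difference of −0.24 (SE 0.082, 95% interval −0.42 to −0.07) missed the threshold in edgeR (adjusted p = 0.0649). With the pairs as a block the level of *Ntrk2* fell (−0.25, adjusted p = 9.17e-04), the ratio within pairs being −0.37, −0.27 and −0.11 on the log2 scale.

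*Ntrk2* is known to be used by neurons and, mostly in its truncated form, by astrocytes, and marker levels of both moved beside it. The summed level of 13 astrocyte markers was 3724, 4127 and 4821 CPM in shCtrl and 2657, 2396 and 4125 CPM in sh*Pla2g4e*, with sh*Pla2g4e* 3 the highest of its group in this sum as in *Ntrk2*. Other libraries went the other way. The library shCtrl 1 had the lowest sum of its group and the highest *Ntrk2*, and sh*Pla2g4e* 1 was above sh*Pla2g4e* 2 in the sum and below it in *Ntrk2*. Of these markers 0 were called higher and 3 lower in edgeR (1 and 9 with the block), beside 2.48% and 4% of all genes (6.5% and 9.02%). Their median log2 difference was −0.37 against 0.03 over all genes. *Gfap* overlapped between groups (665 ± 141 against 433 ± 137 CPM, adjusted p = 0.0267 in edgeR and 6.26e-12 with the block), as did *Aldh1l1* (86.4 ± 1.70 against 99.0 ± 25.8 CPM). The summed level of 15 pan-neuronal markers was 7391 to 8124 CPM in shCtrl and 6723 to 7268 CPM in sh*Pla2g4e*, with 2 called higher and 4 lower, beside the same shares of all genes. *Map2* fell from 1638 ± 24.5 to 1196 ± 80.5 CPM and *Rbfox3* from 186 ± 18.4 to 140 ± 6.20 CPM (adjusted p = 0.00123 and 0.00477 in edgeR). Of the 15, 10 had a negative log2 difference and 5 a positive one. Higher without overlap were, among others, *Snap25* (926.1 to 1010 CPM in shCtrl, 1067 to 1227 CPM in sh*Pla2g4e*) and *Nefl* (103.5 to 127.3 and 154.9 to 165.9 CPM). The part of these shifts in the levels of *Ntrk2* and *Sorcs2* was not tested, nor was that of the seed sites in the level of *Ntrk2*. The transcripts of *Sorcs2* held no such site.

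**Figure D2:**
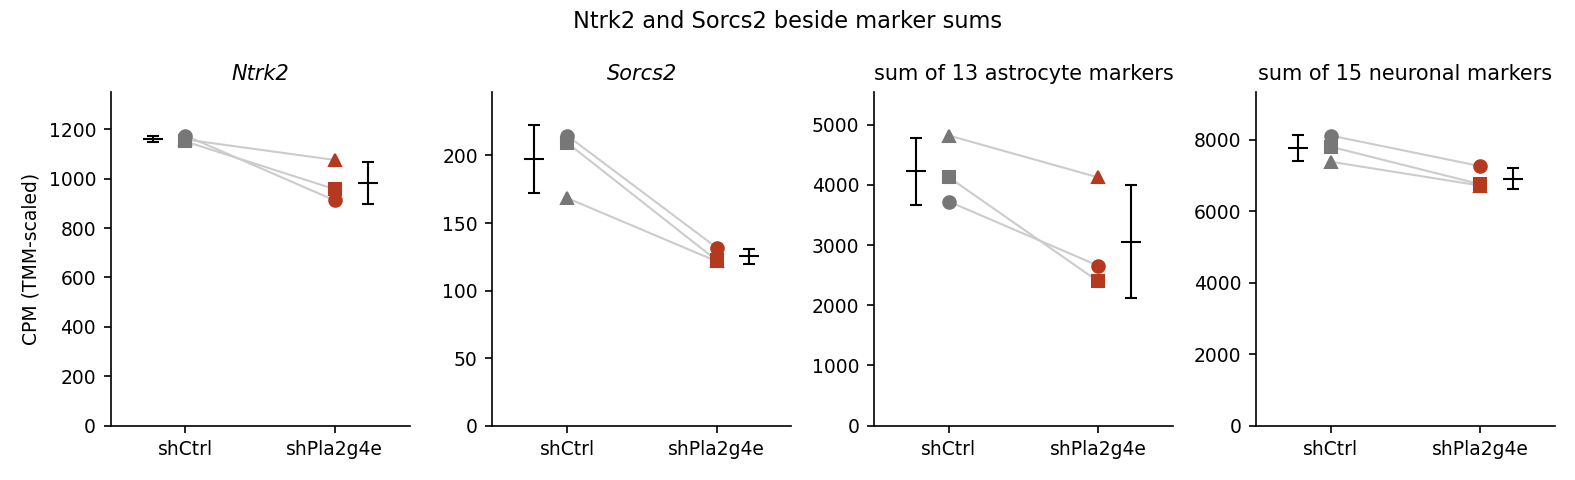
CPM (TMM-scaled, from 0) of Ntrk2 and Sorcs2 beside the summed CPM of 13 astrocyte and 15 neuronal markers in the same libraries, shCtrl in grey and shPla2g4e in red, lines joining same-numbered libraries and black bars for mean and SD. The library shPla2g4e 3 (triangle) is the highest of its group in Ntrk2 and in the astrocyte sum, 1076 and 4125 CPM, but not in Sorcs2 or the neuronal sum. The library shCtrl 1 (circle) is the highest of its group in Ntrk2 and the lowest in the astrocyte sum, 1175 and 3724 CPM.

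The other Trk receptor, *Ntrk3* (ENSMUSG00000059146.13, chr7:77825707-78387760 on the minus strand), was measured at 349, 315 and 308.6 CPM in shCtrl and at 308.2, 273 and 299 CPM in sh*Pla2g4e*. The groups stood apart only by the gap between 308.6 and 308.2 CPM. The log2 difference was −0.14 (95% interval −0.32 to 0.03, adjusted p = 0.296 in edgeR, 0.0878 with the block). The p75NTR gene *Ngfr* (ENSMUSG00000000120.7, chr11:95459644-95478561 on the minus strand) was measured at 4.37, 3.07 and 2.13 CPM in shCtrl and at 2.84, 3.33 and 2.97 CPM in sh*Pla2g4e*, from 48 to 90 reads. The 3 sh*Pla2g4e* libraries lay inside the range of the shCtrl libraries. With an interval of −0.63 to 0.51 around −0.06 on the log2 scale (adjusted p = 0.924 in edgeR), changes of *Ngfr* by up to about that size could not be seen here.

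**Figure D3:**
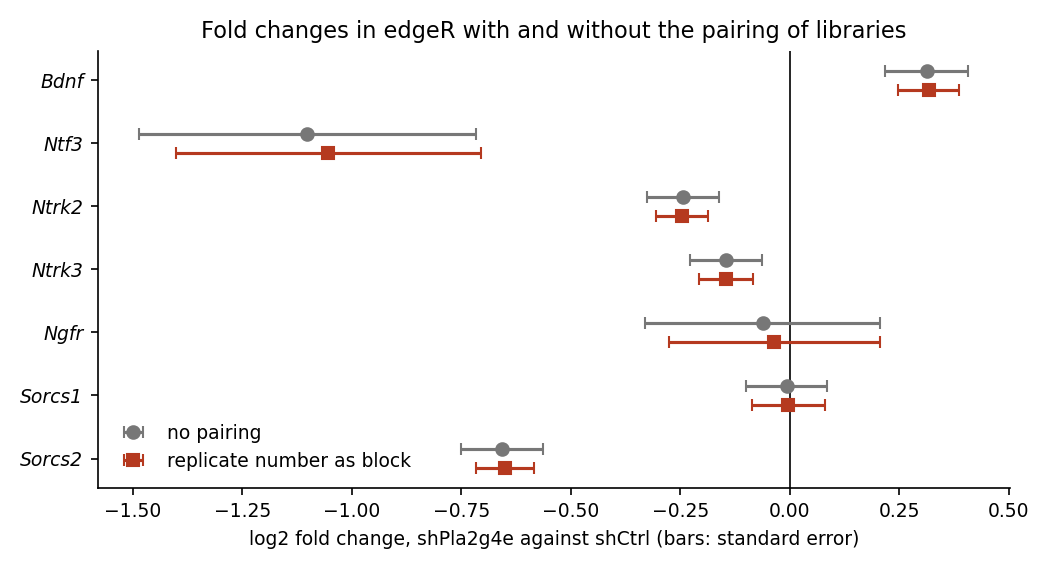
Log2 fold change of the 7 tested genes in shPla2g4e against shCtrl (horizontal axis, bars are standard errors) in edgeR without the pairing (grey circles) and with the replicate number as a block (red squares). The estimates barely move between the fits while the standard errors of Bdnf and Ntrk2 shrink, from 0.095 to 0.069 and from 0.082 to 0.059.

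Divided by exon length, so that genes can be compared with each other, the levels in shCtrl ran from *Ntrk2* at 60.2 ± 0.634 CPM per kb through *Sorcs2* (22.4 ± 2.88), *Bdnf* (14.1 ± 1.83), *Ntrk3* (10.8 ± 0.725) and *Sorcs1* (5.55 ± 0.567) to *Ntf3* (1.33 ± 0.563), *Ngfr* (0.925 ± 0.326) and *Ntf5* (0.0178 ± 0.0183). Of the neighbours in this order, *Ntf3* and *Ngfr* overlapped between libraries and the others did not. TrkB and TrkC transcripts were thus far above that of p75NTR in these cultures. In sh*Pla2g4e*, *Bdnf* (16.6 to 18.6 CPM per kb) stood above *Sorcs2* (13.83 to 14.97), whereas in shCtrl *Sorcs2* (19.1 to 24.4) stood above *Bdnf* (12.1 to 15.7). The exon length joins all annotated exons of a gene, which lowers the value of genes with long, seldom used exons.

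**Figure D4:**
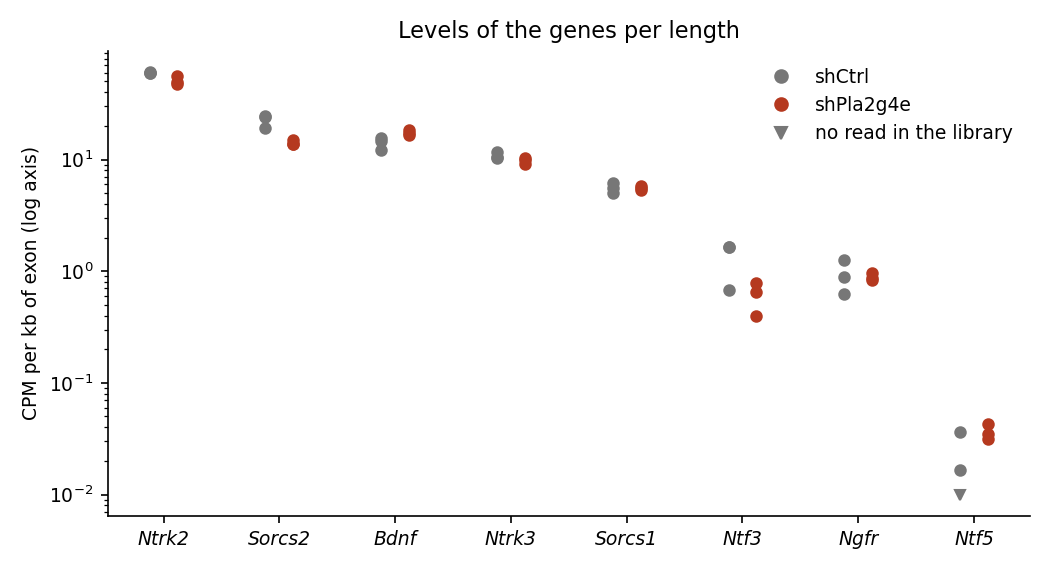
CPM per kb of exon (log axis) of each gene in each library, shCtrl in grey and shPla2g4e in red, ordered by the shCtrl mean. A triangle marks the library without a read of Ntf5, drawn at the foot of the axis. Bdnf and Sorcs2 change places between the groups, and Ntf3 and Ngfr overlap in shCtrl.

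The genes whose profile over the 6 libraries was nearest to that of *Sorcs2*, among the 10907 other genes whose log2 CPM averaged 3 or more, were *Kcnma1*, *Neo1* and *Hnrnpul2*, with a root mean square difference of 0.0306, 0.0320 and 0.0371 on the log2 scale after the shCtrl mean of each gene was taken off. *Kcnma1*, the gene of the BK potassium channel, differed by −0.63, *Neo1*, the gene of the axon guidance receptor neogenin, by −0.66, and *Hnrnpul2* by −0.67. Nearest to *Bdnf* were *Ttc33* (0.0165), *Slc26a2*, a sulphate transporter gene (0.0202), and *Nuak1*, a kinase gene (0.0316). None of these 3 was called in edgeR, with log2 differences of 0.30, 0.29 and 0.31, and with the block *Nuak1* was (adjusted p = 1.58e-04).

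Around these members, other genes of the pathway were taken from lists. The counts called in each list stand beside 2.48% of all genes called higher and 4% called lower in edgeR, or 6.5% and 9.02% with the block. Among 12 tested genes of proneurotrophin cleavage, the proteases and inhibitors that govern the step from precursor to mature factor, 2 were called higher and 0 lower (2 and 1 with the block), with a median log2 difference of 0.06. *Plat*, the gene of tissue plasminogen activator, which activates plasmin for cleavage outside the cell, was at 49.8, 45.2 and 48.3 CPM in shCtrl and at 89.3, 120 and 83.4 CPM in sh*Pla2g4e*. It rose by 1.03 on the log2 scale (adjusted p = 2.37e-05 in edgeR).

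Of 55 tested genes of Trk signalling, 1 was called higher and 5 lower in edgeR (5 and 13 with the block), beside 2.48% and 4% of all genes (6.5% and 9.02%), with a median log2 difference of −0.09. *Rap1b*, a small GTPase of sustained ERK signalling, fell from 106 ± 5.94 to 63.1 ± 3.09 CPM (−0.75, adjusted p = 1.66e-05 in edgeR). *Shc3*, the neuronal adaptor that docks to Trk receptors, fell from 96.4 ± 5.42 to 56.0 ± 6.47 CPM (−0.78, adjusted p = 4.44e-05). *Ptpn1*, a phosphatase that acts on receptor tyrosine kinases, fell from 99.4 ± 7.47 to 64.8 ± 4.27 CPM (−0.62, adjusted p = 1.75e-04). The S6 kinase gene *Rps6ka2*, also called lower (−0.45), and the one that rose, *Islr2* (0.65), were picked with their values in view. The other 49 were not called.

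Of 21 tested partners of p75NTR, 0 were called in either direction in edgeR (2 higher and 2 lower with the block, 2 in DESeq2 and 0 in limma after voom, with 3 higher and 3 lower at an unadjusted p under 0.05 in edgeR), with a median log2 difference of 0.02. The gene nearest to the threshold was *Rtn4r*, the Nogo receptor, at 47.97 ± 4.84 against 61.9 ± 4.02 CPM (0.37, adjusted p = 0.0153, and 1.97e-04 with the block). Of 25 regulators of *Bdnf* transcription, 1 was called higher and 2 lower (2 and 7 with the block), beside the same shares of all genes, with a median of −0.05. *Bhlhe40*, a repressor of the activity-dependent *Bdnf* promoter, rose by 0.67 (adjusted p = 8.04e-05). *Crtc1*, a coactivator of CREB, fell by 0.46 (adjusted p = 6.14e-04), and *Crebbp*, the CREB-binding acetyltransferase, fell by 0.33 (adjusted p = 0.00895). The call of *Crebbp* was lost without any 1 library other than shCtrl 3 (adjusted p = 0.0159 to 0.0497), and with scaling by library size alone (−0.26, adjusted p = 0.0291).

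Among 25 genes known to be induced by BDNF or by activity, 6 were called higher and 0 lower in edgeR (10 and 4 with the block, 11 and 5 at an unadjusted p under 0.05). Of all genes, 2.48% were called higher and 4% lower (6.5% and 9.02% with the block). The list had a median log2 difference of 0.17 against 0.03 over all genes. *Npy*, a neuropeptide gene, rose from 25.3 ± 3.201 to 60.6 ± 3.14 CPM (1.26, adjusted p = 1.30e-06). *Vgf*, which encodes a secreted precursor protein, rose from 724 ± 119 to 1335 ± 178 CPM (0.88, adjusted p = 1.19e-04). *Sst*, also a marker of an interneuron class, rose from 89.5 ± 10.4 to 142 ± 8.70 CPM (0.66, adjusted p = 1.76e-04), and the immediate early gene *Fos* rose from 69.8 ± 0.998 to 101 ± 10.2 CPM (0.53, adjusted p = 7.11e-04). The other 2 called, *Fosb* (0.88) and *Nr4a1* (0.47), were likewise picked with their values in view. In the GDNF family, the growth factors that act through RET, 2 of 8 tested genes were called higher and 0 lower (2 and 1 with the block), beside the same shares of all genes, with a median of 0.40. The co-receptor gene *Gfra1* rose from 30.5 ± 1.21 to 42.0 ± 1.73 CPM (0.46, adjusted p = 0.00257) and *Ret* from 5.13 ± 1.62 to 10.7 ± 2.45 CPM (1.06, adjusted p = 0.00414). Without 1 library these calls were lost for *Gfra1* (shCtrl 1 or 2 or sh*Pla2g4e* 2, adjusted p = 0.0105 to 0.0167) and for *Ret* (shCtrl 1 or 3 or sh*Pla2g4e* 1 or 2, adjusted p = 0.0155 to 0.0229).

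**Figure D5:**
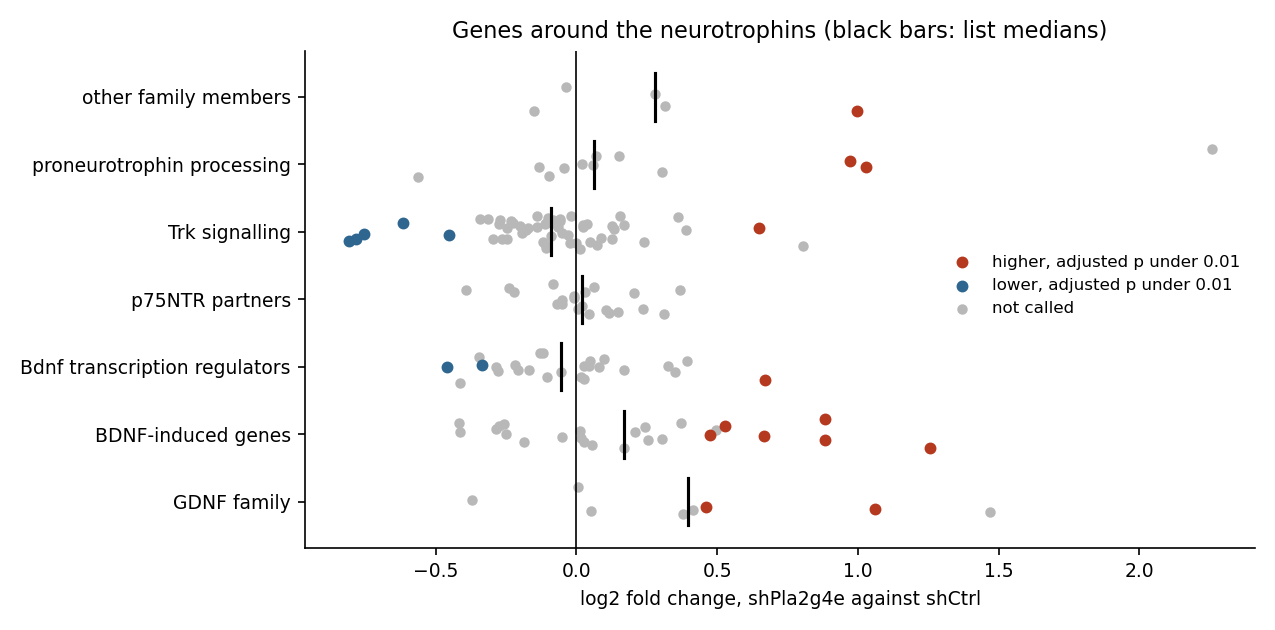
Log2 fold change in shPla2g4e against shCtrl (horizontal axis) of each tested gene in the 7 lists, red for genes called higher and blue for genes called lower at an adjusted p under 0.01, black bars for list medians. The 6 called BDNF-induced genes are all higher, and 5 of the 6 called Trk signalling genes are lower, beside 2.48% of all genes called higher and 4% lower. With the block, which is not drawn, 10 BDNF-induced genes were called higher and 4 lower, and 5 Trk signalling genes higher and 13 lower, beside 6.5% and 9.02%.

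The sh2 seed stretch was also counted in these lists, again in the longest coding transcript's 3′ UTR. It was found in 4 of the 7 list genes called lower, *Rap1b*, *Rps6ka2*, *Crtc1* and *Crebbp*, and in 1 of the 13 called higher. Over all tested genes it was found in 38.2% of those called lower and 6.13% of those called higher, so with these few genes nothing particular to the lists is read from the counts. *Shc3* and *Ptpn1* did not hold it there.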

How the data were processed

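The authors aligned the reads of 6 libraries with STAR 2.7.0d, after FastQC 0.11.8, and deposited raw read counts per gene from featureCounts 1.6.0, with neither strand nor pair options in the record of the run. The methods name mm10 and GENCODE M18, whereas the file headers give GENCODE vM28 on GRCm39, whose gene coordinates are printed. Symbols came from GENCODE vM21 by identifier (52081 of 55357 genes). Groups and numbers came from the labels. Genes reaching 6 reads in any library were tested with edgeR 4.0.16 (R 4.3.3, TMM, quasi-likelihood F test, Benjamini-Hochberg over 21876 genes, threshold 0.01). The code was tested on simulated data. Alternatives were limma 3.58.1 after voom, DESeq2 1.42.0, other scalings and filters, a threshold of 0.05, a replicate block and leaving out each library. Over 10908 genes, deviations from group means correlated at 0.392, 0.189 and 0.461 between same-numbered libraries and at −0.393 to 0.108 between others, so the numbers were taken as pairs. A chi-square statistic per gene of 6.03 to 15.4 within groups showed no library deposited under another name.

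The 8 members, the lists and the markers were chosen with earlier results of these data known. Named list genes were up to 4 called genes with the smallest adjusted p per list, or the nearest to the threshold, and the first 2 of each marker list. Some genes that this rule picks are not reported here. Genes with 90 reads or fewer per library are imprecise at this depth.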

Additional observations from a re-analysis of the deposited data

How the results depend on the processing

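Of the members, *Sorcs2* stayed called under all 14 alternatives, and *Ntf3*, *Ntrk3*, *Ngfr* and *Sorcs1* under none. With the replicate block the counts rose to 1422 genes higher and 1973 lower over all genes (main 543 and 876), to 1 and 2 among the members, *Bdnf* (0.32) and *Ntrk2* (−0.25) being added, to 2 other family members, 18 Trk signalling genes, 4 p75NTR partners, 9 *Bdnf* regulators and 14 BDNF-induced genes. It changed no other call among the members. At a threshold of 0.05 the counts were 1214 and 1599 over all genes, 1 higher member (*Bdnf*, 0.31), and 2, 15, 2, 6 and 11 in those lists, and without a filter 989 and 1360, 1 higher member (*Bdnf*, 0.32), and 10, 2, 5 and 10 in the last 4 of them. Scaling by library size alone gave 1 higher member (*Bdnf*, 0.39), 2 other family members and 1 p75NTR partner, DESeq2 gave 10 Trk signalling genes and 2 p75NTR partners, and limma after voom, like a minimum of 10 reads in every library, gave 0 other family members. *Ngfr* and *Sorcs1*, both near 0, changed sign, *Ngfr* to 0.005 in voom and 0.019 with library size alone, *Sorcs1* to 0, 0.066 and, at 10 reads in every library, 0.012.

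Leaving out 1 library gave 246 (without shCtrl 2) to 681 genes higher and 449 (without shCtrl 2) to 932 lower, 0 members higher and 1 lower throughout, and −0.288 to 0.233 for *Ngfr* and −0.079 to 0.068 for *Sorcs1* on the log2 scale. The lists held 0 to 1 called family members, 1 to 2 processing, 5 to 7 Trk signalling, 0 p75NTR, 2 to 4 *Bdnf* regulator, 5 to 9 BDNF-induced and 0 to 2 GDNF genes. The cause of these moves was not tested. The 3 libraries per group and the 12 to 90 reads of *Ntf3* and *Ngfr* limit what can be seen.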

Other observations

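Markers of other cell types were measured beside the members. The counts called in each marker list stand beside 2.48% of all genes called higher and 4% called lower in edgeR, or 6.5% and 9.02% with the block. The summed level of 14 glutamatergic neuron markers was 2467 to 2667 CPM in shCtrl and 1887 to 2199 CPM in sh*Pla2g4e*, with 2 called higher and 3 lower in edgeR, and within it the vesicular glutamate transporters moved in opposite directions. *Slc17a7* fell from 745 ± 97.0 to 299.6 ± 11.2 CPM (−1.31, adjusted p = 3.69e-07) and *Slc17a6* rose from 47.3 ± 12.6 to 88.3 ± 23.8 CPM (0.91, adjusted p = 0.00389). The 14 GABAergic neuron markers summed to 1496 to 1599 against 1195 to 1311 CPM, with 1 called higher and 4 lower. *Gad1* (−0.19) and *Gad2* (−0.28) were not called, and with the block *Gad2* was (adjusted p = 4.26e-04). The 12 oligodendrocyte lineage markers overlapped between groups, at 619 to 695 against 613 to 809 CPM, with 0 called by edgeR in either direction and 1 lower (*Olig2*) with the block, *Sox10* and *Olig2* being at 40.3 ± 7.20 against 45.3 ± 12.03 CPM and 49.7 ± 10.4 against 38.3 ± 6.16 CPM. The fibroblast sum was 136 to 149 against 143 to 163 CPM, the endothelial and mural sum 69.9 to 120 against 79.97 to 126 CPM, the microglial sum 6.19 to 14.7 against 3.88 to 7.20 CPM and the cholinergic sum 1.36 to 1.96 against 1.51 to 2.57 CPM, with 0 of their markers called in edgeR without the block. At an unadjusted p under 0.05 in edgeR, 3 fibroblast, 1 endothelial or mural, 4 microglial, 1 cholinergic and 1 oligodendrocyte lineage markers were counted in either direction. With the block, 2 fibroblast markers and 1 endothelial or mural marker were called higher and 1 microglial marker lower. The Cajal-Retzius sum was 307 to 343 against 221 to 281 CPM, with 0 markers called higher and 2 lower, and its defining marker *Trp73* was at 0.970 to 1.64 CPM over the 6 libraries. Most of that sum was *Reln* (154.7 to 268.8 CPM), also in the GABAergic list. Most of the fibroblast sum was *Pdgfra* (112.5 to 130.8 CPM), also an oligodendrocyte lineage marker, as is *Cspg4* (41.48 to 54.97 CPM) of the endothelial and mural sum. These sums are therefore not levels of those cell types alone.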
